A study of Homo sapiens with 16 samples.

Results

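The 6 arrays of 42MGBA cells were compared with the 4 arrays of HCT116 cells, whatever the STAG2 status of the culture, by the rank of each gene within its own array. The members were all arrays whose titles name 1 of these lines, 10 of the 16 arrays of the series. 42MGBA is an established human glioblastoma line that carries a mutation of STAG2, the gene for a subunit of the cohesin ring. Its arrays came from the parental line, from the knock-in clones 53 and 92 before Cre recombination, labelled STAG2 deficient, and from the post-Cre clones 53-1, 53-7 and 92-6, labelled STAG2 corrected. HCT116 is an established human colorectal cancer line, with the non-recombinant clones 24 and 27, labelled STAG2 wild-type, and the STAG2 knockout clones 7 and 21, labelled deficient. Cultures were untreated, subconfluent and growing in the same medium with serum. All arrays of a line descend from 1 cell line, and by their names clones 53-1 and 53-7 come from clone 53 and 92-6 from clone 92, so p-values measure the spread between these cultures and not between tumours. The 6 arrays of H4, the study's other brain tumour line, are given side by side.

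The sorted rows of an array were turned into percentiles, where 0 is the lowest and 100 the highest of 33297 rows, because the deposited log2 values of the lines lay on different scales. Array medians ran from 5.001 to 5.047 in 42MGBA, from 6.244 to 6.287 in HCT116 and from 6.230 to 6.302 in H4. A gene was tested if its percentile was over 50 on at least 2 of the 10 arrays, which 12579 of 18394 genes met. A gene was called where limma gave an adjusted p under 0.05 and the mean percentiles differed by at least 20 points. A gene low in 1 line that met the filter only through the other had to differ. The call and p-value of such a gene, and every count over a list, are therefore descriptions. A percentile below the middle of an array was not shown to exceed background, and a probe set's brightness also depends on its probes, so each gene is compared with itself between lines and not with other genes.

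Of 12579 tested genes 1977 were called (15.7%), 843 of them higher (6.7%) and 1134 lower (9.02%) in 42MGBA than in HCT116. Most genes differed by more than the spread between cultures: 10314 genes (82%) had an adjusted p under 0.05 at any size, 5085 higher (40.4%) and 5229 lower (41.6%), and the 10 arrays split by line without overlap in 9249 genes (73.5%). The median SD within a line was 1.75 points in 42MGBA and 1.51 in HCT116, against a median absolute difference of 8.01 points between them. Every gene that differed by at least 20 points also passed limma's test (largest adjusted p = 0.0243), so the size threshold made the calls; 164 genes lay between 20 and 21 points and 190 between 19 and 20. On log2 values centred on each array's median the split of calls was 1423 higher and 3073 lower, which is 31.7% higher against 42.6% in percentiles, and the median of all genes shifted by -0.24 there.

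Rows with no listed gene differed between these lines as often as gene rows. Among rows that met the same filter, 15.6% of 13270 gene rows and 16.9% of 4848 unlisted rows differed by at least 20 points between 42MGBA and HCT116. Between 42MGBA and H4 the shares were 9.67% and 16.3%, and between H4 and HCT116, which lie on 1 scale, 6.28% and 1.84%. At 50 points or more the shares for 42MGBA against HCT116 were 1.90% of gene rows and 0.928% of unlisted rows. At 70 points they were 0.271% and 0.206%. The scale of the 42MGBA arrays and the identity of the line cannot be told apart, at any size. With a limit of 50 points, chosen after seeing the data, 129 genes were higher (1.03%) and 112 lower (0.89%) in 42MGBA by that much. Over all rows the rank correlation between arrays was 0.985 to 0.990 within 42MGBA and 0.990 to 0.993 within HCT116. It was 0.878 to 0.889 between 42MGBA and HCT116, 0.896 to 0.911 between 42MGBA and H4, and 0.938 to 0.950 between HCT116 and H4.

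**Figure D1:**
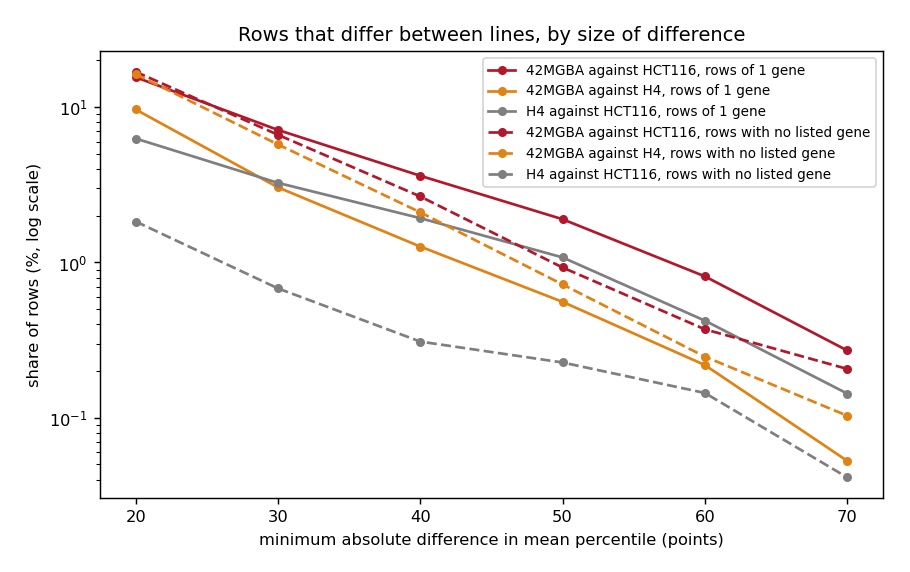
Share of rows (%, log axis) whose mean percentile differed between 2 lines by at least the number of points on the x axis, for rows of 1 gene (solid) and rows with no listed gene (dashed) that met the filter. At 20 points the 2 kinds of row had shares of 15.6% and 16.9% for 42MGBA against HCT116, and 6.28% and 1.84% for H4 against HCT116.

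STAG2, the gene that the study altered, stood at percentile 45.8 in the 42MGBA parental array, 55.2 and 59.5 in clones 53 and 92, and 59.8, 55.9 and 58.0 in clones 53-1, 53-7 and 92-6, labelled corrected. In HCT116 it stood at 87.3 in both wild-type clones and at 54.8 and 62.8 in the knockout clones 7 and 21. The 42MGBA arrays thus overlapped the HCT116 knockouts and lay below the wild-type clones. In 42MGBA the arrays labelled corrected lay above the parental array but near the deficient clones 53 and 92. In H4 STAG2 had 54.6, 60.5 and 55.5 in the mutant arrays, against 84.5, 84.2 and 83.5 in those labelled corrected. The mean difference between lines was -17.3 (SE 6.35, limma, adjusted p = 0.0263), short of the size for a call. Without knockout clone 7 or clone 21 the difference was -23.41 or -20.74 and was called.

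Background for the comparison comes from how tissues are built. Epithelial cells such as those of the colon line hold together through E-cadherin, desmosomes and tight junctions and carry keratin filaments. Mesenchymal cells, and many cultured glioblastoma lines, use vimentin and N-cadherin in their place and secrete collagens. Transcription factors of the SNAI and ZEB families, known as EMT factors for the epithelial-mesenchymal transition, bind a short DNA motif called the E-box and repress epithelial genes.

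The 3 marker genes of line identity split the arrays without overlap, as did 73.5% of all tested genes. CDH1, which encodes E-cadherin, had a lowest, median and highest percentile of 23.1, 24.3 and 27.9 in 42MGBA, against 74.7, 78.9, 82.3 and 86.4 in HCT116 clones 24, 27, 7 and 21. EPCAM, an epithelial adhesion molecule, had 22.8, 26.7 and 29.7 in 42MGBA, against 96.6, 97.5, 97 and 96.9 in the same order of HCT116 clones. VIM, the intermediate filament vimentin, had 98.6, 98.7 and 98.8 in 42MGBA, against 34.8, 40.9, 39.0 and 42.4. Both epithelial genes were therefore low on all 42MGBA arrays and high on all HCT116 arrays, and vimentin had the reverse order. The differences were -55.6 for CDH1 (SE 1.97, adjusted p = 1.44e-09), -70.7 for EPCAM (SE 1.16, adjusted p = 5.59e-12) and 59.4 for VIM (SE 1.23, adjusted p = 2.76e-11), by limma. CDH1 and EPCAM met the filter only through HCT116 and VIM only through 42MGBA, so these p-values are descriptions. H4 averaged 22, 21.7 and 96.3 for these genes, close to 42MGBA in each. In bulk RNA, fewer cells of a type and less RNA per cell cannot be told apart.

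**Figure D2:**
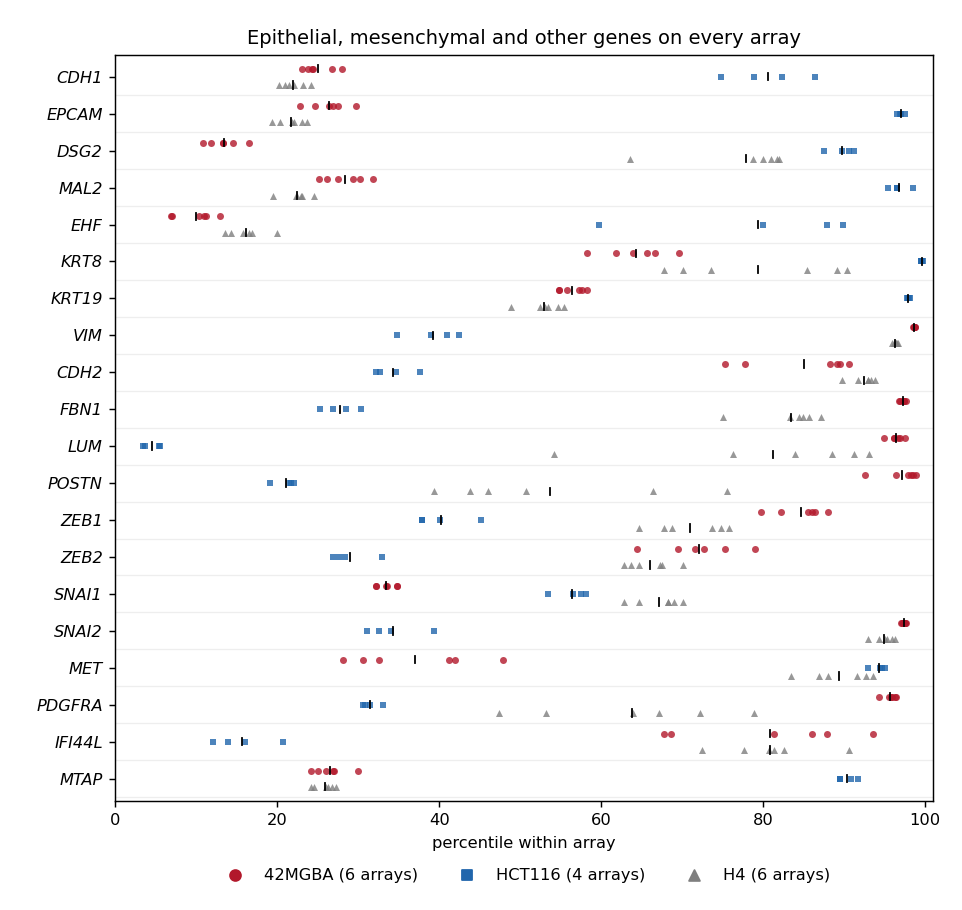
Percentile within the array (x axis) of 20 genes in every array of 42MGBA (circles), HCT116 (squares) and H4 (triangles), with a bar at each line's mean. CDH1, EPCAM and MAL2 lay at percentile 31.9 or below on every 42MGBA array, while VIM and FBN1 lay at 96.8 or above.

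Epithelial junction and adhesion genes were the list with the largest shift down in 42MGBA. Of 44 genes 39 were on the array as rows of their own and 35 were tested. Of these 23 were lower, 1 was higher and 11 were not called (68.6% called, against 15.7% of all tested genes). Their median difference was -36.6 against -0.16 over all tested genes. DSG2, a desmosomal cadherin, stood at a lowest, median and highest of 10.9, 13.3 and 16.5 in 42MGBA, against 89.7, 90.6, 91.2 and 87.5 in HCT116 (difference -76.4, SE 1.15, adjusted p = 3.74e-12). MAL2, a protein of apical transport, averaged 28.4 ± 2.6 (SD, n = 6) in 42MGBA and 96.7 ± 1.3 (SD, n = 4) in HCT116. Its desmosomal neighbours in function, DSC2, a further desmosomal cadherin (19.4 against 87.6), and DSP, desmoplakin (30.9 against 89.3), were also lower. RAB25, a GTPase of epithelial recycling (21.7 against 87.1), CDH3, P-cadherin (29.8 against 90.6), and CLDN7 and CLDN4, claudins of tight junctions (43.6 against 91.6 and 34.4 against 82.2), were lower as well. In 42MGBA the epithelial transcription factors EHF (9.89 against 79.3), GRHL2 (29.1 against 74.3) and ELF3 (33.7 against 66.4) were lower, and so was the membrane protease ST14 (40.5 against 88.1). EHF was uneven within HCT116, with 79.9, 89.8, 59.8 and 87.8 in clones 24, 27, 7 and 21.

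Members of the list did not all go one way. MUC1, a membrane mucin, was higher in 42MGBA at 72.7 ± 1.6 (SD, n = 6) against 46.5 ± 1.7 (SD, n = 4) in HCT116. CLDN3 averaged 70.7 in 42MGBA and 74.1 in HCT116, and LSR, a protein of tricellular junctions, 73.5 and 86.7, neither called. H4 stood with 42MGBA at EPCAM, CDH1, MAL2, RAB25, CDH3 and DSP, within 7 points of its mean. For DSG2, H4 averaged 77.8, for the polarity protein PATJ 73.2 (25.6 in 42MGBA and 81.5 in HCT116) and for CXADR, a junctional adhesion protein, 74.1 (32.2 in 42MGBA and 83.1 in HCT116), all nearer to HCT116.

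The promoters of the epithelial genes were searched for the E-box letters CAGGTG and their reverse complement CACCTG, which are the same site read on either strand, from 250 bases before to 50 after the RefSeq start of the gene. Of the 23 genes that were lower, 12 had a promoter in the RefSeq table, and 6 of these (50%) held the motif: DSP, DSC2, DSG2, RAB25, ELF3 and PATJ. Of the 31 extracellular matrix genes that were higher, 20 had a promoter and 1 (5%) held it, IGFBP3. Over all 27305 promoters the share was 20.6%. Such a match is a description of the letters and not a bound site. The promoters of RAB25 (chr1:156060910-156061209, plus strand), DSG2 (chr18:31497927-31498226, plus strand) and ELF3 (chr1:202010337-202010636, plus strand) of RefSeq on GRCh38.p14 are shown because these genes are low in 42MGBA and hold the motif, in capitals, 2, 2 and 1 times.
RAB25: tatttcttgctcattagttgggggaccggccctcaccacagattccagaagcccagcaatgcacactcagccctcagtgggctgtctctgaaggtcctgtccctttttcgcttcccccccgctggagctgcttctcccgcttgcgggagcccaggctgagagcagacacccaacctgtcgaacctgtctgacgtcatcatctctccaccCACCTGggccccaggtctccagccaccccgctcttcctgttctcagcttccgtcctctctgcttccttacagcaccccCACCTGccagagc
DSG2: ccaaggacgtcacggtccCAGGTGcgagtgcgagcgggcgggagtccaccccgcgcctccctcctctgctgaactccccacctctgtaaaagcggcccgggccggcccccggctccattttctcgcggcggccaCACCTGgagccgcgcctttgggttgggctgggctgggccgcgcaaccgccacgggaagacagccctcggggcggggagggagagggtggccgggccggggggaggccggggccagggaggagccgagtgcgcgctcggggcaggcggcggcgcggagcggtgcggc
ELF3: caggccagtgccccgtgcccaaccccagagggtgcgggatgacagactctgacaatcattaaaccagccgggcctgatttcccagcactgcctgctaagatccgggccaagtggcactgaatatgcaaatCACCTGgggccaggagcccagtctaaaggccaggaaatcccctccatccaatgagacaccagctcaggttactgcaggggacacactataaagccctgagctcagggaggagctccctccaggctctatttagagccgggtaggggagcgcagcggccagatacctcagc

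EMT transcription factors were mostly higher in 42MGBA. All 10 EMT factors measured were tested, with a median difference of 39.2. In 42MGBA 7 were higher, 1 was lower and 2 were not called (80% called, against 15.7% of all tested genes). SNAI2 had a lowest, median and highest of 97, 97.4 and 97.6 in 42MGBA, against 32.5, 31.1, 39.3 and 34.1 in HCT116 (difference 63.1, SE 1.33, adjusted p = 2.95e-11). ZEB1 averaged 84.7 ± 3.1 (SD, n = 6) in 42MGBA and 40.2 ± 3.4 (SD, n = 4) in HCT116. ZEB2 averaged 72.1 and 28.9, although the gene's other row differed by 9.77 only. PRRX1, a homeobox factor of mesenchyme, averaged 94.6 in 42MGBA and 26.7 in HCT116, and 24.9 in H4, where it stood with the colon line. TCF4, TWIST1 and TWIST2, basic helix-loop-helix factors, were higher in 42MGBA, at 77.7, 88.5 and 91.3 against 27.2, 67.9 and 55.9. SNAI1, the founding member of the SNAI family, was lower, at 32.1, 33.5 and 34.8 in 42MGBA, against 56.6, 58.1, 57.5 and 53.5 in HCT116 (difference -22.9, SE 0.985, adjusted p = 5.73e-09). SNAI3 (83.2 against 71.7) and FOXC2 (74.1 against 62.1) were not called.

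Extracellular matrix genes were mostly higher in 42MGBA. Of 36 tested genes 31 were higher, 0 lower and 5 not called (86.1% called, against 15.7% of all tested genes). Their median difference was 36.6, and their median percentile was 95.4 in 42MGBA, 51.1 in HCT116 and 83.3 in H4. LUM, the collagen-binding proteoglycan lumican, had the largest difference of all 12579 genes, with 95, 96.4 and 97.5 in 42MGBA, against 3.68, 3.39, 5.38 and 5.51 in HCT116 (difference 91.9, SE 0.690, adjusted p = 8.92e-14). FBN1, fibrillin of microfibrils, stood at 96.8, 97.3 and 97.7 in 42MGBA, against 28.5, 26.9, 30.4 and 25.3 (difference 69.5, SE 0.88, adjusted p = 1.14e-12). LOX, the collagen cross-linking enzyme (90.3 against 18.7), and POSTN, periostin (97.1 against 21.1), were also far apart. DCN, the proteoglycan decorin, averaged 91.7 against 16.2, but clone 92-6 stood at 75.9 while the other 42MGBA arrays lay between 93.5 and 97.1. Collagen chains were higher, such as COL1A2 (99.8 against 45.6), COL3A1 (99.3 against 48.6) and COL6A3 (99.2 against 34.7), and so were fibronectin FN1 (97.4 against 48.3), SPARC (99.4 against 34.0) and the matrix protease MMP2 (96.6 against 37.7). TIMP1, an inhibitor of matrix proteases, had 96.2 in both lines.

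H4 did not share the matrix profile in full. Its mean lay within 10 points of 42MGBA for COL6A3 (98.8), FN1 (98.3), MMP2 (96.5), SPARC (94.2) and LOX (87.3). COL1A2, a chain of type I collagen, had 47.1 in H4, DCN 39.4 and POSTN 53.6.

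Cytoskeletal and surface genes of mesenchyme split more evenly than matrix genes. Of 26 tested genes 10 were higher, 2 lower and 14 not called (46.2% called, against 15.7% of all tested genes). Their median difference was 14.0. PDGFRA, a receptor of platelet-derived growth factor, had 94.3, 95.9 and 96.4 in 42MGBA, against 31.5, 33.0, 30.8 and 30.5 in HCT116. CDH2, N-cadherin, had 75.3, 88.7 and 90.6 in 42MGBA, against 32.7, 37.6, 32.1 and 34.6, and its 2 lowest arrays were the parental array and clone 53 at 75.3 and 77.7. CDH11, a mesenchymal cadherin (96.1 against 35.8), THY1, a surface glycoprotein (98.5 against 42.4), PDGFRB (89.4 against 46.3) and TAGLN, an actin-binding protein (79.6 against 40.3), were higher. NT5E, the ecto-enzyme CD73, was lower at 40.2 against 81.6, with 85.9, 91.3, 91.9 and 57.3 in HCT116 clones 24, 27, 7 and 21, and AKAP12, a kinase anchor, was lower at 68.1 against 97. LGALS1 (99.7 against 97.8) and CD44 (97.1 against 95.7) were high in both lines and not called.

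Keratins fell in part. Of 11 tested 4 were lower, 0 higher and 7 not called (36.4% called, against 15.7% of all tested genes). KRT19 had 54.7, 56.5 and 58.2 in 42MGBA, against 97.7, 98.1, 98.1 and 97.9 in HCT116, and KRT8 had 58.3, 64.8 and 69.6 against 99.6, 99.5, 99.5 and 99.8. Both are keratins of simple epithelia, and both split the lines without overlap, as did 73.5% of all tested genes. KRT18, the partner of KRT8 in simple epithelia, averaged 87.9 and 95.9 and was not called, while a further row of this gene differed by -52.3. KRT15 and KRT23 were lower, at 22.5 and 26.6 against 59.6 and 58.0.

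Most genes of the tissues named in the labels did not meet the filter. Of 37 glial and neural genes on the array 14 were tested, of which 3 were higher, 0 lower and 11 not called, a share of 21.4% against 15.7% of all tested genes. GFAP, the astrocyte filament, averaged 45.6 in 42MGBA and 49.6 in HCT116, OLIG2 30.2 and 34.4, SOX2 27.5 and 39.0, and S100B 24.9 and 23.0. These 4 defining glial genes did not pass the filter in either line. The 14 tested genes had a median difference of 13.8. Some of those not called were higher by limma's adjusted p, such as OLIG1 at 71.6 against 56.5 (difference 15.1, SE 0.857, adjusted p = 4.89e-08). Others not called were lower, such as NEFL at 38.1 against 49.7. SYT11, a synaptotagmin (73.9 against 28.7), DPYSL3 (93.1 against 69.2) and L1CAM (71.3 against 49.3), both of neurite growth, were the higher ones. Of 25 intestinal and colorectal genes 9 were tested, and 0 were called in either direction; by limma's adjusted p alone some differed, such as KLF5, an intestinal crypt factor, at 66.7 against 83.1 (difference -16.3, SE 1.26, adjusted p = 5.11e-07). CDX2, the intestinal homeobox gene, averaged 69.3 in 42MGBA and 70.1 in HCT116. VIL1, LGR5 and CDH17 did not pass the filter, with 25.1, 15.9 and 15 in 42MGBA and 32.3, 23.1 and 11.2 in HCT116. Among 15 immune and endothelial markers 2 were tested and 0 called, and PTPRC, the leukocyte antigen CD45, averaged 14.9 and 8.02.

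**Figure D3:**
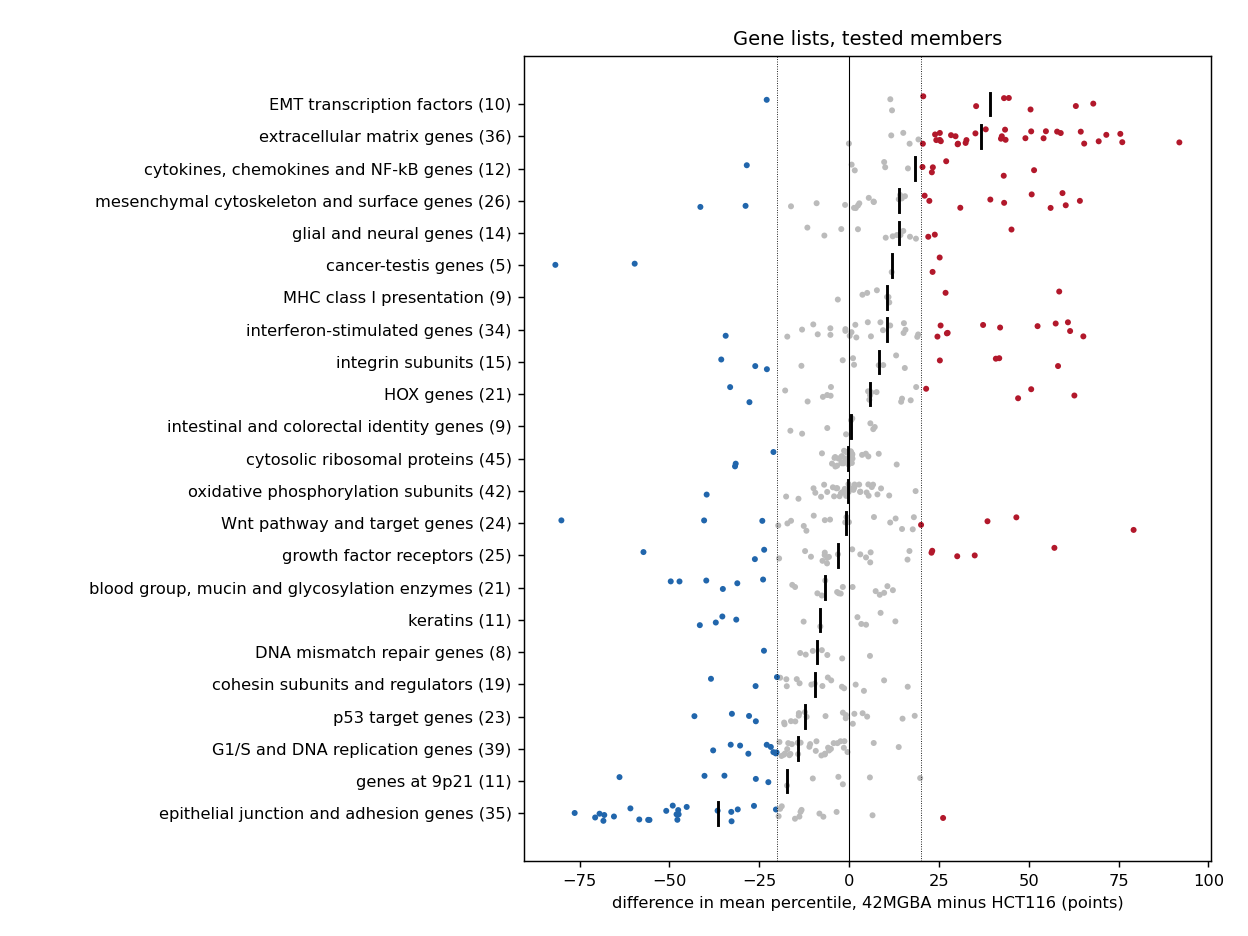
Difference in mean percentile (42MGBA minus HCT116, points) of every tested member of each gene list, with the list's median as a bar, red for genes called higher, blue for genes called lower and grey for genes not called. Extracellular matrix genes lay almost wholly right of 0 and epithelial genes left of it.

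Secreted signals and their receptors were among the largest single differences. WNT5A, a ligand of non-canonical Wnt signalling, had 96.3, 97.4 and 97.7 in 42MGBA, against 15.9, 20.5, 17.0 and 19 in HCT116 (difference 79.2, SE 0.865, adjusted p = 4.15e-13). DKK1, a secreted Wnt inhibitor, had 9.48, 13.9 and 19.7 in 42MGBA, against 95.3, 92.5, 93.2 and 95.6 in HCT116 (difference -80.1, SE 1.72, adjusted p = 3.37e-11). Over the 24 tested Wnt genes 4 were higher, 3 lower and 17 not called (29.2% called, against 15.7% of all tested genes). Their median difference was -0.89. APCDD1 (92.8 against 46.3) and DKK3 (95.9 against 57.4), a membrane inhibitor and a Dickkopf relative, were higher, and RNF43, a Wnt target that removes Frizzled receptors, was lower (46.7 against 87.0). CTNNB1, beta-catenin, averaged 96.0 in 42MGBA and 96.7 in HCT116.

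CXCL12, the chemokine that attracts CXCR4-bearing cells, stood at 95, 98.1 and 98.4 in 42MGBA, against 22, 20.4, 22 and 19.6 in HCT116, and H4 averaged 21.7. IL18, a cytokine processed by the inflammasome, had 1.24, 3.99 and 6.22 in 42MGBA, against 80.3, 83.3, 85.3 and 85.6. Of 12 tested cytokine and NF-kB genes 6 were higher, 1 lower and 5 not called (58.3% called, against 15.7% of all tested genes). A further 10 of the 22 on the array did not meet the filter. The chemokine CCL2 was higher (85.5 against 34.1), and LIF was lower (36.6 against 65.1).

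Among 25 tested growth factor receptors 5 were higher, 3 lower and 17 not called (32% called, against 15.7% of all tested genes). MET, the receptor of hepatocyte growth factor, had 28.1, 36.9 and 47.9 in 42MGBA, against 94.7, 94.4, 92.9 and 95.1 in HCT116 (difference -57.2, SE 3.56, adjusted p = 9.70e-08), and 89.4 on average in H4. DDR2, a collagen receptor, averaged 92.5 in 42MGBA and 35.4 in HCT116, while its relative DDR1 averaged 84.3 and 87.4 and was not called. KIT (56.0 against 21.0) and EPHA4 (83.5 against 53.4) were higher and FGFR4 (45.7 against 71.9) was lower. Integrins, which bind matrix, gave 4 higher, 3 lower and 8 not called of 15 (46.7% called, against 15.7% of all tested genes). ITGA4 averaged 88.4 in 42MGBA and 30.3 in HCT116, and ITGA11, part of a collagen receptor, 79.9 and 39.0. ITGA2, ITGA3 and ITGB4, subunits used by epithelial collagen and laminin receptors, were lower, at 52.1, 67.0 and 49.1 against 87.6, 89.8 and 75.2.

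Interferon-stimulated genes gave more calls up than down. Of 34 tested 11 were higher, 1 lower and 22 not called, or 35.3% called against 15.7% of all tested genes (6.7% higher and 9.02% lower), with a median difference of 10.4. Most of the 11 met the filter through 42MGBA and the 1 lower gene through HCT116, so these counts are descriptions. Without the filter the median difference over the 38 on the array was also 10.4. IFI44L had 67.7, 83.7 and 93.6 in 42MGBA, against 12.0, 16, 13.9 and 20.7 in HCT116. The lines did not overlap, as in 73.5% of all tested genes, although 42MGBA varied with an SD of 10.6 points. MX2, an antiviral GTPase (83.9 against 22.4), BST2, tetherin (89.4 against 36.9), and IFI44 (76.7 against 15.8) were higher, and the ISG15 ligase HERC5 was lower (33.9 against 68.2). H4 averaged 80.9 for IFI44L, 79.0 for MX2 and 90.8 for BST2. PSMB8, an immunoproteasome subunit, stood at 85.6, 88.8 and 90.1 in 42MGBA, against 31.5, 30.9, 27.7 and 29.8 in HCT116. Of 9 tested genes of MHC class I presentation 2 (22.2%) were higher, PSMB8 and PSMB9, and 7 were not called, B2M, the light chain, having 98.8 and 91.1.

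Several of the largest falls in 42MGBA lay outside the lists described so far. MAGEB2, a cancer-testis gene of the X chromosome, had 10.2, 13.3 and 15.9 in 42MGBA, against 94.6, 94.7, 94.9 and 95 in HCT116. CYP24A1, the enzyme that breaks down active vitamin D, had 12.9, 14.9 and 19.2, against 94.4, 97.2, 97.8 and 97.5. ANXA3, an annexin, averaged 16.7 and 92.6, and GTSF1, a factor of germline piRNA silencing, 23.7 and 95.9. For these 4 genes H4 stood with 42MGBA, between 16.2 and 25.3 on average. TES, a focal adhesion protein (25.1 against 95.6), and PSIP1, a chromatin-binding coactivator (13.8 against 88.4), were as far apart, but H4 averaged 89.7 and 84.1. Cancer-testis genes went both ways, but only 5 of 15 on the array were tested. They gave 2 higher, 2 lower and 1 not called (80% called, against 15.7% of all tested genes). PRAME was lower (25.2 against 84.9), like MAGEB2, and MAGEA1 (68.8 against 43.6) and CTAG2 (88.4 against 65.2) were higher. MAGEB2 and PRAME met the filter only through HCT116, so these counts are descriptions.

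**Figure D4:**
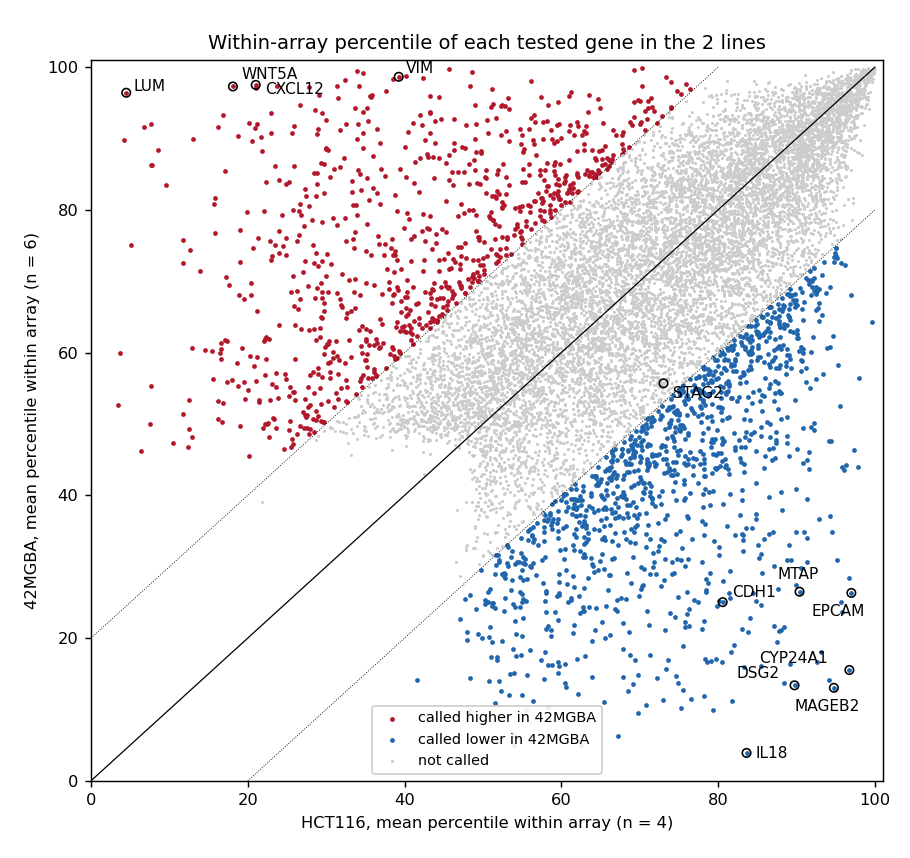
Mean percentile of each of the 12579 tested genes in 42MGBA (y axis, n = 6) against HCT116 (x axis, n = 4), red where called higher in 42MGBA, blue where called lower, grey otherwise; the dotted lines mark 20 points. LUM, WNT5A and CXCL12 stand at the upper left, MAGEB2, CYP24A1 and IL18 at the lower right, and STAG2 lies inside the dotted lines.

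Genes at 9p21, a chromosome arm region with the tumour suppressor CDKN2A that glioblastomas often lose, were lower or not called. Of 11 tested 5 were lower, 0 higher and 6 not called (45.5% called, against 15.7% of all tested genes). MTAP, an enzyme of methionine salvage next to CDKN2A, had 24.1, 26.4 and 29.96 in 42MGBA, against 91.8, 89.5, 90.8 and 89.4 in HCT116, and H4 averaged 25.8. CDKN2A averaged 39.5 in 42MGBA, 65.5 in HCT116 and 41.3 in H4. PLIN2, FOCAD and DENND4C, further along the same arm, were lower in 42MGBA (32.1, 48.9 and 54.9 against 72.4, 83.6 and 77.4), but H4 averaged 70.01, 77.0 and 79.1. CDKN2B averaged 51.8 and 53.5 and was not called.

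Called members of the replication, mismatch repair, p53 and cohesin lists were all lower in 42MGBA. In that order their shares were 23.1%, 12.5%, 17.4% and 15.8%. Among all tested genes 9.02% were lower and 15.7% were called in either direction. The list medians of the difference were -14.2, -8.83, -12.3 and -9.54, against -0.16 over all tested genes. Of 39 tested G1/S and replication genes 9 were lower and 30 not called, with a median difference of -14.2, and GINS2, a replication fork subunit (51.0 against 88.8), and the cyclin CCNE1 (58.9 against 87.0) were among the 9. The list's median percentile was 76.8 in 42MGBA, 90.0 in HCT116 and 82.8 in H4. Of 19 cohesin genes 3 (15.8%) were lower: the acetyltransferases ESCO2 (48.2 against 86.6) and ESCO1 (59.3 against 79.4) and STAG1, the alternative to STAG2 in the ring (55.3 against 81.4). STAG1 stood at 52.2, 55.0 and 60.9 in 42MGBA, against 81.2, 79.9, 80.8 and 83.5 in HCT116, and H4 averaged 83.4. Its arrays did not overlap, as in 73.5% of all tested genes. ESCO1 lay at the edge of the size threshold, with a difference of -20.1 that lost its call without any 1 of 5 arrays (-19.97 to -19.48). RAD21 (95.2 against 97.2) and SMC3 (83.1 against 90.5), core ring subunits, were not called. Of 23 tested genes of the p53 list 4 (17.4%) were lower, such as the stress cytokine GDF15 (49.1 against 92.2) and the stress sensor SESN1 (39.8 against 72.4). MDM2 (78.6 against 94.7) was not called. Beside p53 target genes this list holds CDKN2A and CDKN2B, and CDKN2A, counted above at 9p21, was 1 of the 4. EXO1, an exonuclease, was the 1 mismatch repair gene lower of 8 (12.5%), at 68.1 against 91.8.

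HOX genes, which record position along the body axis, went both ways. Of 21 tested 4 were higher, HOXD9, HOXD10, HOXD11 and HOXC10, and 2 lower, HOXB6 and HOXB9 (28.6% called, against 15.7% of all tested genes). HOXD10 had 84.7, 85.9 and 88.5 in 42MGBA, against 23.2, 24.7, 22.3 and 23.5 in HCT116, and H4 averaged 22.1. HOXB6 averaged 45.1 ± 3.9 (SD, n = 6) in 42MGBA and 78.2 ± 6.0 (SD, n = 4) in HCT116. Enzymes that build blood group and mucin sugars gave 6 lower, 0 higher and 15 not called of 21, again 28.6% called. GALNT12 (26.5 against 76.1) and B3GNT5 (23.7 against 70.9) were among the lower ones.

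Neighbouring genes formed 5 runs of at least 5 adjacent tested genes called in 1 direction, 4 higher and 1 lower in 42MGBA. On chromosome 14 the imprinted noncoding gene MEG3 and 8 small RNA genes beside it were higher. Most of them, such as MEG3, SNORD113-4 and MIR494, met the filter only through the 42MGBA arrays, so their calls are descriptions. MEG3 had 95.1, 96.1 and 96.7 in 42MGBA, against 41.7, 47.6, 38.6 and 45.1 in HCT116. SNORD113-4, a small nucleolar RNA of the same region, had 86.1, 90.2 and 92.1 in 42MGBA, against 3.72, 2.19, 5.35 and 5.70, and H4 averaged 41.3 and 3.65 for these 2 genes, near HCT116. The median over the 2 SNORD113 genes on the array was 88.1 in 42MGBA and 5.94 in HCT116, and over the 4 SNORD114 genes 82.9 and 9.69. On chromosome 15 the run held SNORD116 genes of the imprinted region lost in Prader-Willi syndrome. Over all 20 SNORD116 genes on the array the median was 37.5 in 42MGBA, 8.46 in HCT116 and 26.7 in H4. Only 7 met the filter, through the 42MGBA arrays where they are high, so that their calls were fixed by the filter. SNORD116-14 had 88.6, 91.9 and 94.6 in 42MGBA, against 5.49, 8.55, 7.49 and 5.49 in HCT116, and H4 averaged 83.4, near 42MGBA. None of 20 genes of the neighbouring SNORD115 family passed the filter, with family medians of 3.49 in 42MGBA and 3.23 in HCT116.

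The run of 8 beta protocadherins on chromosome 5, which encode neuronal adhesion proteins, was higher. Over all 18 PCDHB genes on the array the median was 50.7 in 42MGBA, 24.1 in HCT116 and 59.3 in H4. PCDHB2 had 82.9, 86.6 and 89.3 in 42MGBA, against 25.2, 25.3, 26.6 and 26.7 in HCT116, and H4 averaged 88.4. The median over 12 PCDHA genes was 70.04 in 42MGBA and 56.8 in HCT116. On chromosome 19, 7 zinc finger genes were higher, of which ZNF626 averaged 85.2 in 42MGBA and 28.4 in HCT116 and ZNF253 58.6 and 18.7. The run that was lower lay on chromosome 11 and held the embryonic globin gene HBE1 (34.8 against 90.9) and 4 olfactory receptor genes, such as OR51B4 with 11, 19.1 and 21.9 in 42MGBA, against 91.9, 92.3, 93.7 and 94.6. Members that were low in 1 line, such as PCDHB2 in HCT116 and OR51B4 in 42MGBA, met the filter only through the other, so their calls are descriptions. SnoRNA, protocadherin, zinc finger and olfactory receptor genes have near-identical copies, so their probes may share signal, and neighbours are not independent observations.

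**Figure D5:**
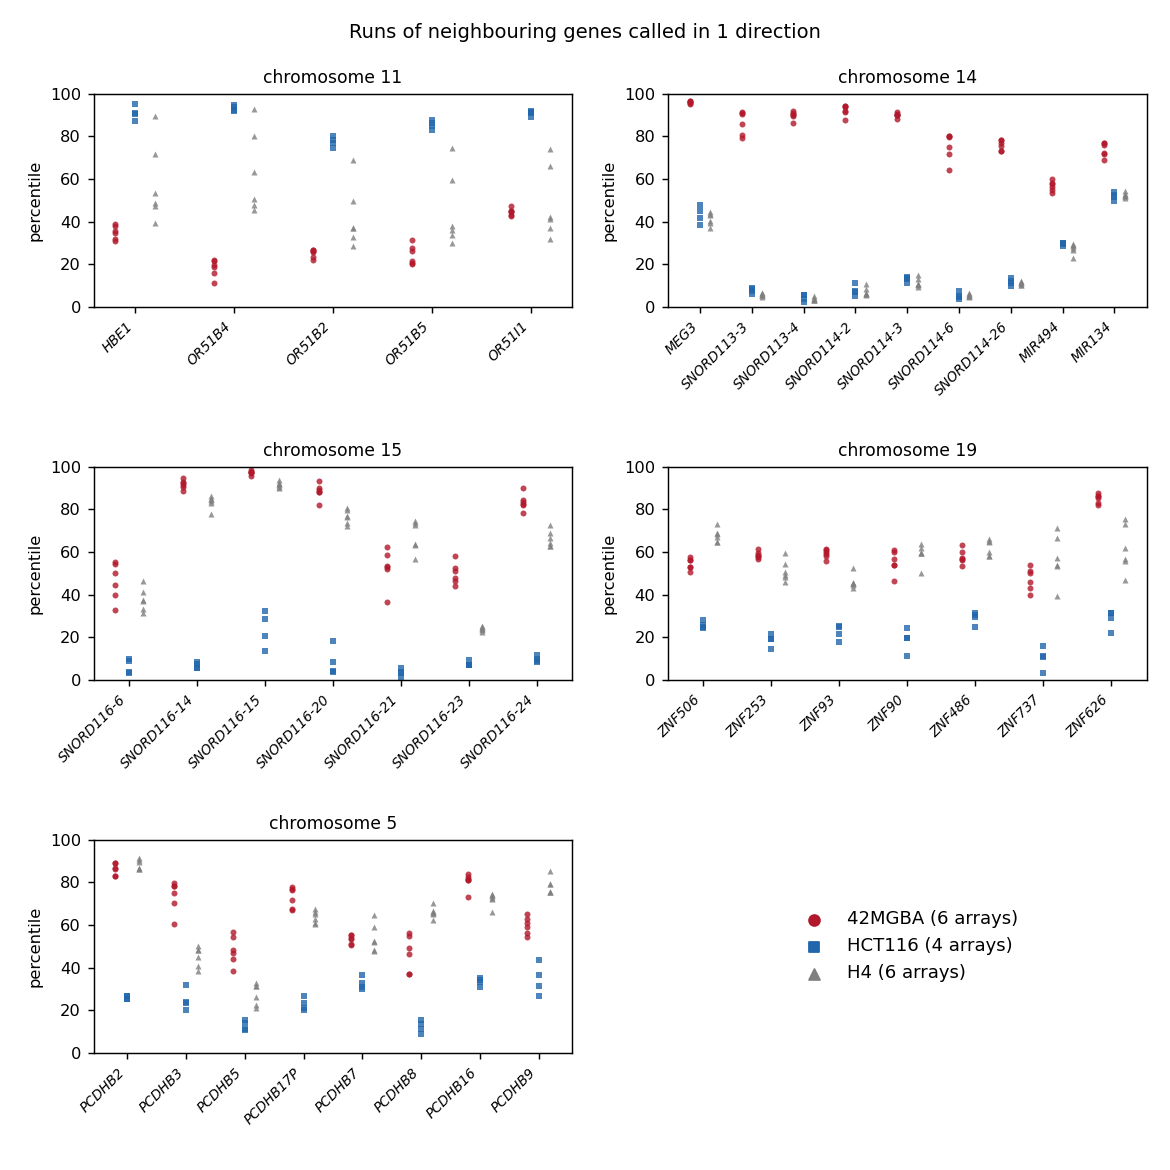
Percentile within the array (y axis) of each gene in the 5 runs, in order along the chromosome, on every array of 42MGBA (circles), HCT116 (squares) and H4 (triangles). H4 stands with HCT116 in the chromosome 14 run and mostly with 42MGBA in the chromosome 15, 19 and 5 runs.

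Over whole chromosomes the balance of calls differed. On chromosome 13, 53 of 205 tested genes (25.9%) were lower and 12 higher, with a median difference of -10.2, and on chromosome 4, 87 of 418 (20.8%) were lower with a median of -5.16. Among all tested genes 9.02% were lower, and the median was -0.16. The medians of H4 minus HCT116 on these chromosomes were -4.21 and -0.49. Chromosomes 20, 21 and 14 had medians of 4.88, 4.25 and 3.28. Genes of 1 chromosome share its copy number, which was not measured, and no test was made of a chromosome.

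MicroRNA genes gave 14 calls, 11 higher and 3 lower, of 47 tested and 173 on the array, where 6.7% of all tested genes were higher and 9.02% lower. This count is a description, because many of the 14 met the filter through 1 line only. MIR21, MIR221 and MIR15A did so through HCT116, and MIR199B, MIR365A and MIR494 through 42MGBA. The rows measure RNA of the gene or its precursor and not the mature strand. MIR21, an abundant miRNA gene of cancers, stood between 13.8 and 21.8 on the 42MGBA arrays, against 74.9, 72.0, 70.6 and 77.1 in HCT116 (difference -56.7, SE 1.78, adjusted p = 5.53e-10). MIR221 averaged 29.7 ± 3.1 (SD, n = 6) in 42MGBA and 70.5 ± 3.2 (SD, n = 4) in HCT116, and MIR15A, on chromosome 13, 33.1 and 67.2. All 3 were low on every 42MGBA array. MIR199B, known from mesenchymal tissue, averaged 55.4 and 7.61, MIR365A 80.6 and 27.8, and MIR494 and MIR134 of the chromosome 14 run 56.7 and 73.7 against 29.4 and 51.8. The 14 genes have 23 mature strands in RefSeq with 23 different seeds, so none shared a seed. The strands of 6 of them are shown because these genes moved most or lie in the chromosome 14 run, with the seed, bases 2 to 8, in capitals, on GRCh38.p14.
hsa-miR-21-5p (chr17:59841273-59841294, plus strand): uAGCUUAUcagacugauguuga
hsa-miR-221-3p (chrX:45746180-45746202, minus strand): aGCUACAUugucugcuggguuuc
hsa-miR-15a-5p (chr13:50049167-50049188, minus strand): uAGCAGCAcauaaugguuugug
hsa-miR-199b-3p (chr9:128244745-128244766, minus strand): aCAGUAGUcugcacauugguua
hsa-miR-365a-3p (chr16:14309340-14309361, plus strand): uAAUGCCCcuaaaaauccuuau
hsa-miR-494-3p (chr14:101029681-101029702, plus strand): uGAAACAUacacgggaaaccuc

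Of 12579 genes 34.3% lay within 5 points of each other in the lines. The 243 genes at percentile 95 or more on all 10 arrays were picked by a rule that leaves no room for a call. In that set RPL4, a ribosomal protein, averaged 99.6 in both lines, and HNRNPH1, a splicing factor, 98.1 in both. Of 45 tested cytosolic ribosomal proteins 3 were lower (6.67%, against 9.02% of all tested genes), RPL32, RPS29 and RPL23. The list's median percentile was 96.95 in 42MGBA and 97.7 in HCT116, near the top of the arrays, where percentiles are compressed, and its median difference was -0.18 in percentiles and -0.42 on log2 values minus the array median. RPS6, at 95.9 against 98.8, was not called in percentiles and was called on both log2 scales. Of 42 oxidative phosphorylation subunits 1 was lower (2.38%, against 9.02% of all tested genes), NDUFA5 of complex I (47.7 against 87.4). Their median difference was -0.19 in percentiles and -0.50 on log2 values minus the array median.

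Some genes varied strongly within a line. IGFBP5, an insulin-like growth factor binding protein, had 49.97, 50.03, 92.5, 93.6, 87.6 and 54.3 in 42MGBA parental, 53, 92, 53-1, 53-7 and 92-6, against 34.9 to 40.8 in HCT116. VCAM1, an adhesion molecule induced by NF-kB, had 41.4 in the 42MGBA parental array and 51.7 in 92-6, against 73.9 to 83.5 in the other 4. GPR15, a homing receptor of T cells, had 19.7 to 27.1 in 42MGBA, against 77.8, 30.5, 39.8 and 84.3 in HCT116 clones 24, 27, 7 and 21. VCAN, the proteoglycan versican, had 93.4 to 96.9 in 42MGBA, against 68.4, 87.7, 91 and 37.0 in those clones. Its call (difference 24.3, SE 8.73, adjusted p = 0.0243) was lost without clone 24 (difference 23.4) or clone 21 (12.93). ANGPT2, an angiopoietin, averaged 25 in 42MGBA and 50.7 in HCT116 with overlapping arrays, and its call (difference -25.7, SE 8.95, adjusted p = 0.021) was lost without clone 7 (-18.67) or clone 21 (-18.12). It was 1 of 3 genes (0.0238% of those tested) in which the difference between the lines depended on the labelled STAG2 status by limma's interaction test, with ITGB8 and TM4SF18.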

How the data were processed

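RNA of 16 cultures, 6 of H4, 6 of 42MGBA and 4 of HCT116, was measured on Human Gene 1.0 ST arrays, each culture on its own array. The deposited table gives 1 value per probe set and array on the log2 scale, as its range shows. Per the submitters' processing notes the authors used RMA in Affymetrix Expression Console; their versions are not given in the sources used here. The number of arrays limits the precision of all values.

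Of 33297 rows 19460 had 1 gene symbol, 1754 had several and 12083 had none listed. Symbols were updated to RefSeq names for 19429 rows, and 31 kept the older symbol. Y-linked and XIST rows (24) were left out. Each array was converted to percentiles, 100 times the average rank over all rows divided by 33297, and the row with the highest mean percentile stood for a gene (768 of 18394 had several rows). The fit used limma 3.58.1 (lmFit, eBayes; R 4.3.3) on the percentiles of the 10 arrays, with line as the only term. Two-sided p-values were adjusted over 12579 genes by the Benjamini-Hochberg method. The same steps were tested on simulated data. Named by rule were STAG2, the 3 markers, the 15 largest calls in each direction whose arrays do not overlap, of each list up to 5 called members per direction with the largest differences and 2 uncalled members with the highest mean, the 5 genes with the largest SD within each line, the 5 most alike genes at percentile 95 or more, all runs, and the 3 genes with the smallest p for line by STAG2 status. Other genes named, mostly further list members, tissue markers and miRNA genes, were chosen after their values were seen. The members and the 24 lists were chosen with earlier results of these data known, so list counts are descriptions. Alternatives were other scalings, filters and sizes, subsets by STAG2 status and leaving out each array.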

Additional observations from a re-analysis of the deposited data

Results flagged for a closer look

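Of 424 checks, 212 named genes in 2 lines, 28 had 1 array far from the others of its line, where chance flags about 1 in 20. In 42MGBA the parental array stood apart in 7: STAG2 at 45.8 (others 55.2 to 59.8), ITGA4 at 79.6 (88.1 to 91.8), ITGAV at 90.7 (93.1 to 94.5), KRT14 at 67.2 (55.9 to 59.6), PSMB9 at 89.8 (92.1 to 93.1), PTTG1 at 91.2 (89.7 to 90.2) and GALNT12 at 32.3 (24.0 to 25.7). Clone 92-6 was lower for WNT5A at 96.3 (97.3 to 97.7), CXCL12 at 95 (97.2 to 98.4) and DCN at 75.9 (93.5 to 97.1), and higher for NTRK3 at 69.5 (47.3 to 54.0). Clone 53-7 stood apart for SESN1 at 35.9 (39.998 to 41.7), ATP5F1B at 98.4 (98.2 in each other array) and PCDHB16 at 73.3 (81.0 to 84.0), and clone 53 for SAMD9L at 84.7 (66.0 to 70.8) and IFI6 at 98.2 (93.6 to 95.3), both interferon-stimulated.

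In HCT116 the knockout clone 21 was higher than the other clones for PSIP1 at 91.3 (87.4 to 87.7), KRT18 at 96.5 (95.6 to 95.7), IFI44 at 19.1 (14.4 to 15.1), DENND4C at 80.2 (76.1 to 76.7) and SNORD116-23 at 9.33 (6.78 to 7.16), and lower for CCND1 at 94.2 (95.5 in each). The knockout clone 7 was lower for GATA6 at 67.9 (72.7 to 73.2), RFC1 at 90.7 (92.2 to 92.4) and POLA1 at 85.5 (87.7 to 88.1), and higher for H2AC8 at 11 (6.37 to 7.15) and KIT at 22.8 (20.2 to 20.7). The wild-type clone 27 was higher for EDIL3 at 19.8 (15.6 to 16.1). Within 42MGBA the parental array and clone 92-6 had first principal components of -201 and -175, against 62.3 to 168 in the other 4, and within HCT116 clone 21 had 271, against -122 to -56.5.

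The difference between lines depended on the labelled STAG2 status in 3 of 12579 genes by limma's interaction test (0.0238%, with 659 at an unadjusted p under 0.05). Deficient minus corrected in 42MGBA, less knockout minus wild-type in HCT116, was -37.2 for ITGB8, an integrin subunit (adjusted p = 0.000552), -43.6 for ANGPT2 (adjusted p = 0.00164) and -33.7 for TM4SF18, a tetraspan membrane protein (adjusted p = 0.00608). ITGB8 had 92.8 to 96.0 on all 42MGBA arrays, and in HCT116 71.6 and 70.4 in the knockout clones 7 and 21, against 36.6 and 32.8 in the wild-type clones. ANGPT2 had 21.5 to 27.4 in 42MGBA, and in HCT116 71.8 and 73.4 in the knockouts, against 26.9 and 30.8. TM4SF18 had 9.29 to 17.4 in 42MGBA, and in HCT116 59.1 and 54.6 in the knockouts, against 27.2 and 25.6. Within 42MGBA deficient and corrected arrays differed by -0.913, 0.125 and -3.26 points in these genes. STAG2 itself was higher in the corrected arrays (55.9 to 59.8) than in the parental array (45.8), but near clones 53 and 92 (55.2 and 59.5).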

How the results depend on the processing

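The counts of called genes depended on the scale and the limits, while no named gene changed direction. Calls numbered 1849 higher and 2236 lower on quantile-normalized log2 values and 1423 and 3073 on log2 values minus the array median, both at a difference of at least 1. With ranks over single-gene rows alone 1314 genes were higher, and with a filter on the mean percentile 715 were lower. With no minimum size there were 5085 higher and 5229 lower, and at 50 points, added after seeing the data, 129 and 112. With switch limits of 70 and 30 in place of 75 and 25, 47 genes were high in 42MGBA and low in HCT116 on every array and 62 the reverse. Without each array in turn 830 to 858 genes were higher and 1121 to 1151 lower, and 25 to 26 and 26 to 29 switched. Of 158 called named genes 14 lost the call under some of 21 settings, and 24 of 54 others gained it. Leaving out 1 array lost the calls of ANGPT2, ESCO1, FZD7 (18.95 to 19.87 in 5 such fits), PCDHB7 (19.79 without HCT116 clone 21) and VCAN, and gained those of STAG2 and PI15 (20.8 without the 42MGBA parental array, 20.16 without 92-6). Of 24 list medians only those of the intestinal genes (in 3 of 21 settings) and the growth factor receptors (in 1) changed sign. No paired analysis was possible because replicate numbers follow the order of the samples and no clone of 1 line pairs with a clone of the other. Detection over background was not analysed here, so low ranks carry no level, and the scale of the 42MGBA arrays limits every size given.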

Other observations

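Genes that were at percentile 75 or more on every array of 1 line and at 25 or less on every array of the other numbered 25 high in 42MGBA and 26 high in HCT116. Besides genes already described, the first group held PCDH18, a protocadherin (92.2 in 42MGBA against 20.1 in HCT116, and 94.3 in H4), ENPP2, the enzyme that makes lysophosphatidic acid (89.6 against 20.6, and 90.6 in H4), TLE4, a Groucho co-repressor (91.5 against 21.0, and 87.8 in H4), and CBR1, a carbonyl reductase (92.0 against 21.2, and 83.8 in H4). The smooth muscle actin ACTG2 (93.5 against 23.0), the prostaglandin receptor PTGFR (90.2 against 21.7) and the adaptor DOK5 (90.7 against 22.9) belonged to it as well, with 23.8, 23.0 and 24.3 in H4. In the second group were MARVELD2, tricellulin of tight junctions (16.8 in 42MGBA against 79.1 in HCT116, and 21.6 in H4), the neuropeptide gene NMU (20.9 against 87.8, and 42.9 in H4) and the Src family kinase LYN (21.3 against 83.1, and 77.5 in H4).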
